A study of Mus musculus with 28 samples.

Results

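The ionotropic and metabotropic glutamate receptor genes and the scaffold genes of the excitatory postsynapse were examined in mouse cortex during experimental autoimmune encephalomyelitis (EAE), an inflammatory model of multiple sclerosis. The 40 genes were chosen by symbol alone, from 43629 genes in the count table, and comprised 4 AMPA (Gria), 5 kainate (Grik) and 7 NMDA (Grin) receptor subunits, 2 delta receptors (Grid), 8 metabotropic receptors (Grm), 4 DLG, 4 DLGAP, 3 SHANK and 3 HOMER scaffolds. All mice carried the Glt25d2 BacTRAP transgene, which tags ribosomes in cells that use the Glt25d2 (now Colgalt2) control region, among them layer 5 projection neurons. RNA recovered with the tagged ribosomes is the IP fraction, and RNA taken before the pulldown is the input. Each fraction had 5 libraries from healthy mice, 5 from mice at 15 days after immunisation with MOG35-55 (acute) and 4 from mice at 30 days (chronic). The controls carried the same transgene, so every comparison is between transgenic mice. Age, sex and whether each library of a group is a different mouse are not given in the labels, and the p-values therefore rest on the variation from library to library, part of which may be technical.

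Glutamate released at excitatory synapses opens AMPA receptors, which carry the fast current, and NMDA receptors, which admit calcium once the membrane is depolarised. Kainate receptors tune transmission on both sides of the synapse, and metabotropic receptors act through G proteins. On the inner face of the membrane, DLG proteins such as PSD-95 (Dlg4) hold receptors, DLGAP proteins link DLG to SHANK, and SHANK and HOMER link the complex to metabotropic receptors and the actin skeleton.

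Of the 40 genes, 38 passed the filter on low counts in each fit, and Grin3b, a glycine-binding NMDA subunit, and Grm6, a receptor of retinal bipolar cells, did not. Grin3b reached at most 0.676 CPM (counts scaled to a common library size) in an input library and Grm6 at most 0.111 CPM. Input libraries held 17848273 to 27915940 counts and IP libraries 6198088 to 21229550. The coefficient of variation between libraries of a group had a median over the 38 genes of 8.55%, 9.27% and 10.5% in healthy, acute and chronic input, and of 26.1%, 39.5% and 35.2% in IP. Genes with a count numbered 20714 to 21734 in input and 9566 to 17995 in IP, where acute 3, acute 1, chronic 3 and healthy 5 had the fewest. Acute IP replicate 1 stood apart for these genes, with the lowest acute IP level of Gria1, Gria2 and Grin2b. Layer 5 markers were higher in healthy IP than in input for 6 of 10 genes and lower for 0. Oligodendrocyte markers were higher for 0 and lower for 6 of 10. Endothelial markers were higher for 1 and lower for 0 of 7, with a median log2 ratio of 1.38 against 0.78 for layer 5. Astrocyte and microglia markers were higher for 0 and lower for 0 of 10 each, with medians of -1.14 and -1.26.

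Promoter sequences are given for Gria2, Gria4 and Shank3, which were lower in acute input and higher in chronic than in acute input, and for Grin1 and Grm2, which were higher in IP than in input in all 3 phases. Each is the 250 bases before the RefSeq start site on GRCm38.p6, written 5′ to 3′ on the gene's strand, with capitals marking GGGCGG (the GC box, on either strand, so that CCGCCC is also capitalised) or CACGTG (an E-box).
Gria2, minus strand of chr3:80802836-80803085: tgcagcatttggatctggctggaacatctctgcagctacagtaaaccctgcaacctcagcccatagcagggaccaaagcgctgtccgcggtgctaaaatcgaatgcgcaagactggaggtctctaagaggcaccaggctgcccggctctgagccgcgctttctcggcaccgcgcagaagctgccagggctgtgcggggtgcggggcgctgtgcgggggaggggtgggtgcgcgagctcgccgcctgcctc
Gria4, minus strand of chr9:4796235-4796484: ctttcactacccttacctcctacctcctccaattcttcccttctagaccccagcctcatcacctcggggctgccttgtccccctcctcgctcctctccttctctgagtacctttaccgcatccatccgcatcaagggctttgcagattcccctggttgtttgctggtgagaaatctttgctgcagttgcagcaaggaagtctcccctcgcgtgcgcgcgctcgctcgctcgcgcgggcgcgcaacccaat
Shank3, plus strand of chr15:89499358-89499607: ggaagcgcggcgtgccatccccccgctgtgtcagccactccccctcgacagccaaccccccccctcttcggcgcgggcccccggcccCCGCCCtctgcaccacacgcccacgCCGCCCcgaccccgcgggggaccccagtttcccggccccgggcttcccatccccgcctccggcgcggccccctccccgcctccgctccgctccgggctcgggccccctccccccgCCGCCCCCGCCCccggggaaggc
Grin1, minus strand of chr2:25319188-25319437: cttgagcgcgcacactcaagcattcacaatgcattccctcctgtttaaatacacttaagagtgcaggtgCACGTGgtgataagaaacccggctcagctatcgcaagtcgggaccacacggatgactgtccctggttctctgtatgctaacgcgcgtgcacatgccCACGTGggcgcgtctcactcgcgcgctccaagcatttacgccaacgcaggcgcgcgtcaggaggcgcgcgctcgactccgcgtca
Grm2, minus strand of chr9:106656110-106656359: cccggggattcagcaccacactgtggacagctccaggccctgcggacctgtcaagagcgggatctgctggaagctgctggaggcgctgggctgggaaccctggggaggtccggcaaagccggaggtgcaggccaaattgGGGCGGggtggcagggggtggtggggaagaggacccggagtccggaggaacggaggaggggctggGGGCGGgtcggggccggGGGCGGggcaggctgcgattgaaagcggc
The Gria2 and Gria4 windows held neither motif, Shank3 and Grm2 held GC boxes, and Grin1 held E-boxes. RefSeq windows were found for 26 of the 40 genes, 40 windows in all. Genes without one included Gria1, Gria3, Grin2a, Grin2b, Grm4, Grm5, Shank1 and Shank2. GGGCGG occurred on either strand in 17 of those 40 (42.5%) and in 32.7% of all 32851 windows, and CACGTG in 4 (10%) and in 6.02%. The cyclic AMP response element TGACGTCA and the core site of the factor NRF1 were in 0 of 40 (1.55% and 0.782% of all windows), and the core of the interferon response element was in 2 (5%, against 2.98%). A match describes the letters only. The median GC content was 58.8% in the windows of these genes and 52.4% in all.

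The genes described most fully lie, on GRCm38 and from first to last annotated base, at chr3:80681450-80802835 (Gria2, minus strand), chr9:4417899-4796234 (Gria4, minus), chr2:25291181-25319187 (Grin1, minus), chr6:135713232-136173511 (Grin2b, minus), chr7:91090706-92447003 (Dlg2, plus), chr11:70017085-70045532 (Dlg4, plus), chr7:44310253-44358351 (Shank1, plus) and chr15:89499623-89560261 (Shank3, plus). Their counts are of reads on all annotated exons, UTRs included.

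Levels were compared between genes per kilobase of summed exon length. In healthy input, Dlg4, the gene of PSD-95, was first at 196 ± 7.41 CPM per kb (mean ± SD, n = 5), followed by Dlgap3 at 73.2 ± 2.33. Grik5, a kainate subunit that needs a partner to form channels, stood at 46.4 ± 3.90, Dlg3 (SAP102) at 45.0 ± 1.71, Gria1 at 44.9 ± 4.96 and Dlgap1 at 43.6 ± 2.93 CPM per kb, and these neighbours did not differ beyond their spread. Grin1, the obligatory NMDA subunit, was 13th at 21 ± 3.14 CPM per kb, Grin2b 19th at 11.8 ± 0.903 and Grin2a 36th at 1.79 ± 0.479. The deposited exon length limits this order for some genes: it was 5296 bases for Grin2a against 17933 in GENCODE M21, 4982 against 13251 for Dlg4, and 3137 against 6721 for Grik1. In healthy IP, Grin1 stood 4th at 39.0 ± 8.79 CPM per kb and Grm2 8th at 22.3 ± 4.22, while Dlg4 and Dlgap3 were again first and second, at 146 ± 21 and 66.6 ± 14.8.

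**Figure D1:**
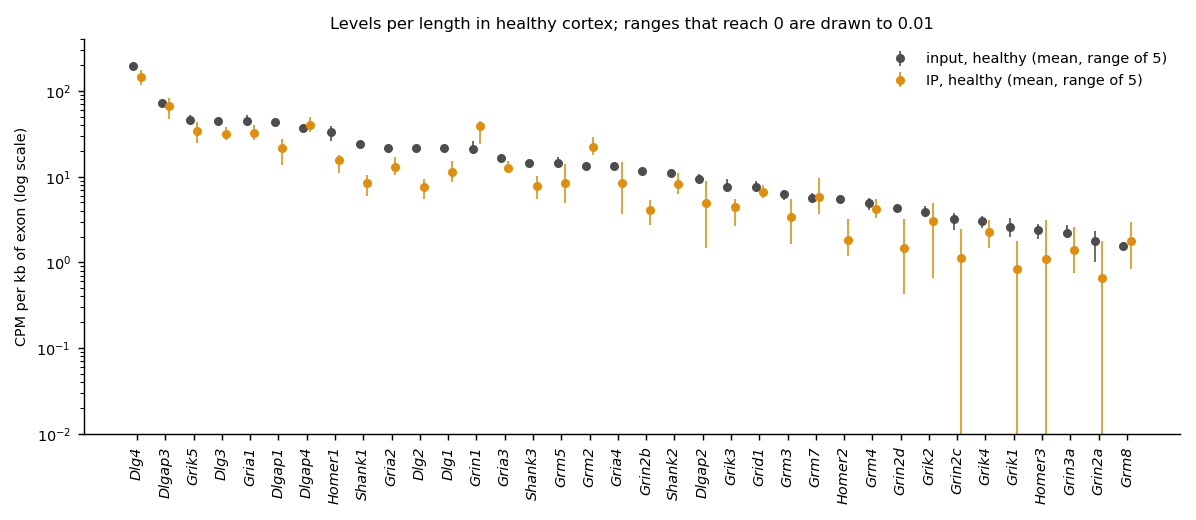
Level of 36 of the measured genes in healthy cortex, in CPM per kilobase of exon on a log axis, as mean and range of 5 libraries in input (grey) and IP (orange). Dlg4 is highest in both fractions, Grin1 and Grm2 lie higher in IP, and the IP ranges of the low genes are wide. The fractions were scaled apart, so heights compare between them only approximately.

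In whole cortex, 2 AMPA, 1 kainate, 1 NMDA and 2 metabotropic receptor genes and 2 DLG, 2 SHANK and 1 HOMER scaffold genes were lower in acute than in healthy mice. Of 38 genes tested, 11 were lower and 0 higher than in healthy input at an adjusted p under 0.05 with edgeR's quasi-likelihood test, where 8.59% of all 16381 genes were lower and 11.1% higher. The median log2 change of the 38 was -0.15, against -0.01 over all genes. Lower were 2 of 4 AMPA, 1 of 5 kainate, 1 of 6 NMDA and 2 of 7 metabotropic receptor genes, 2 of 4 DLG, 0 of 4 DLGAP, 2 of 3 SHANK and 1 of 3 HOMER genes. In bulk cortex, fewer cells of a type and less RNA per cell cannot be told apart. Markers of other cells rose in the same libraries: 5 of 10 astrocyte genes were higher (summed level 898 to 1061 CPM in healthy and 1405 to 1724 in acute), 6 of 10 microglia genes were higher and 1 lower (61.6 to 93.4 and 136 to 220.2), and 5 of 6 leukocyte genes that passed the filter, of 11 listed, were higher (6.45 to 19.3 and 15.9 to 32). Of 30 pan-neuronal genes, 2 were higher and 5 lower (summed level 26275 to 28235 CPM and 25351 to 27366). Inhibitory neuron markers were higher for 1 and lower for 2 of 10 (1131 to 1419 and 1161 to 1329). Layer 5 markers were also higher for 1 and lower for 2 of 10 (827 to 871 and 837 to 912). The part of these cells in the result was not tested. With libraries scaled on the pan-neuronal genes in place of all genes, 6 of the 11 still passed, namely Gria4, Grik2, Grin2b, Grm4, Shank1 and Shank3.

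Among the AMPA subunits, Gria4, a subunit with fast kinetics that is abundant in interneurons, fell the most. Its level in replicates 1 to 5 of healthy input was 76.6, 79.3, 84.0, 85.5 and 83.5 CPM, and in acute input it was 60.7, 60.4, 61.3, 59.0 and 68.3 CPM. Every acute library lay below every healthy one. The log2 change was -0.40 ± 0.05 SE (edgeR adjusted p = 2.05e-05). Gria2, whose edited subunit makes AMPA receptors nearly impermeable to calcium, had 324, 341, 369, 319 and 347 CPM in healthy and 291, 283, 293, 322 and 313 CPM in acute input. Its groups overlapped slightly, with the highest acute library above the lowest healthy one. The log2 change was -0.18 ± 0.05 SE (edgeR adjusted p = 0.025), with the call held in 8 of the 14 fits lacking 1 library and lost without healthy 2, 3 or 5 or acute 1, 2 or 3. Gria1, the main partner of Gria2 in cortical pyramidal cells, had 243, 260.0, 319, 254 and 282 CPM and 256, 249, 272, 316 and 327 CPM, with overlapping groups and a log2 change of 0.07 ± 0.12 SE (edgeR adjusted p = 0.746). Gria3 also did not pass (-0.05 ± 0.05 SE, edgeR adjusted p = 0.529).

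Of the kainate subunits, Grik2, which forms the channel of most kainate receptors, fell by 0.31 ± 0.08 SE (edgeR adjusted p = 0.00986) on the log2 scale. Of the NMDA subunits, Grin2b, which gives receptors slow decay and binds CaMKII, fell from 256, 317, 295, 289.5 and 300.2 CPM to 241, 227, 199, 248 and 243 CPM. All 5 acute libraries lay below all 5 healthy ones. That was a log2 change of -0.33 ± 0.07 SE (edgeR adjusted p = 0.00171). Grin1, without which no NMDA receptor forms, had 177, 190.4, 255, 204 and 190.0 CPM in healthy and 181, 198, 190.3, 196 and 254 CPM in acute input. Replicate 3 of the healthy and replicate 5 of the acute group stood above the rest, and the change of 0.00 ± 0.12 SE (edgeR adjusted p = 0.991) did not pass. Grin2a, the subunit that rises as cortex matures, gave 10.2, 12.4, 5.41, 9.42 and 10 CPM and 10.4, 7.57, 7.88, 9.65 and 5.15 CPM, with a change of -0.22 ± 0.21 SE (edgeR adjusted p = 0.491).

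The metabotropic receptors that fell were Grm5 and Grm4. Grm5, a group I receptor that couples to phospholipase C and binds HOMER, had 106, 110.0, 135, 115 and 109 CPM in healthy and 96.4, 89.9, 96.7, 105 and 105 CPM in acute input. All acute libraries were below the healthy ones, by a narrow margin. Its log2 change was -0.22 ± 0.07 SE (edgeR adjusted p = 0.0424), a call held in 4 of 14 fits without 1 library, lost without any of healthy 2 to 5, acute 1 to 5 or chronic 3. Grm4, a presynaptic group III receptor, fell by 0.39 ± 0.11 SE (edgeR adjusted p = 0.0188), and lost its call without healthy 2, acute 3 or acute 4.

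Of the SHANK genes, large scaffolds of the deep postsynaptic density, 2 of 3 fell. Shank1 had 206, 214, 196, 201 and 195 CPM in healthy input and 157, 193, 128, 178 and 133 CPM in acute input. Every acute library was below every healthy one, with acute 3 and 5 lowest. The log2 change was -0.36 ± 0.09 SE (edgeR adjusted p = 0.0121). For Shank3, linked to autism in humans, the levels were 132, 123.3, 139, 125 and 124 CPM and 95.5, 124, 88.8, 112 and 97.8 CPM. Acute 2 was the only acute library within the healthy range, and the change was -0.31 ± 0.07 SE (edgeR adjusted p = 0.00687). Shank2 did not pass (0.06 ± 0.10 SE, edgeR adjusted p = 0.749).

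In the DLG family, Dlg2 (PSD-93) fell from 232, 236, 212, 227 and 222 CPM to 206, 186, 179, 186 and 146 CPM. The groups did not overlap, and acute 5 was lowest. The log2 change was -0.32 ± 0.07 SE (edgeR adjusted p = 0.00557). Dlg1 (SAP97), a scaffold that accompanies AMPA receptors to the membrane, went from 198, 194, 183, 208 and 194 CPM to 181, 179, 181, 175 and 157 CPM, with every acute library below the healthy ones. That was -0.16 ± 0.04 SE (edgeR adjusted p = 0.0141). Dlg4 itself had 934, 947, 1004, 1021 and 985 CPM and 974, 1004, 938, 969 and 966 CPM, overlapping groups and a log2 change of -0.01 ± 0.03 SE (edgeR adjusted p = 0.844). Homer2 fell by 0.21 ± 0.07 SE (edgeR adjusted p = 0.0298), and its call was lost without healthy 1 or 2 or acute 1, 3 or 5. Homer1, whose long forms bridge metabotropic receptors to SHANK, had 314, 406, 276, 338 and 391 CPM in healthy and 329.9, 302, 322, 336 and 269 CPM in acute input, with overlapping groups and a change of -0.15 ± 0.11 SE (edgeR adjusted p = 0.379). Gria4, Grin2b, Shank1, Shank3, Dlg1, Dlg2 and Grik2 passed in all 14 fits that left out 1 library. The remaining genes did not pass, with values given for those named. Among NMDA subunits of lower level, Grin3a was at -0.27 ± 0.11 SE (edgeR adjusted p = 0.1), Grin2d at -0.16 ± 0.08 SE (edgeR adjusted p = 0.178) and Grin2c at 0.29 ± 0.22 SE (edgeR adjusted p = 0.396). The delta receptor Grid1 (0.11), the kainate subunits Grik1 (-0.23), Grik3 (-0.10), Grik4 (0.12) and Grik5 (-0.02), and the metabotropic receptors Grm3 (-0.20), Grm7 (-0.13) and Grm8 (-0.15) had log2 changes that missed the threshold. So did Dlgap1 (-0.11), Dlgap2 (-0.13), Dlgap3 (-0.07), Dlgap4 (-0.01), Dlg3 (-0.05), Grm2 (0.01) and Homer3 (0.13). The count of 11 became 7 without healthy 2 and 7 without acute 3, and 0 when all 28 libraries were fitted together with the more variable IP libraries.

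**Figure D2:**
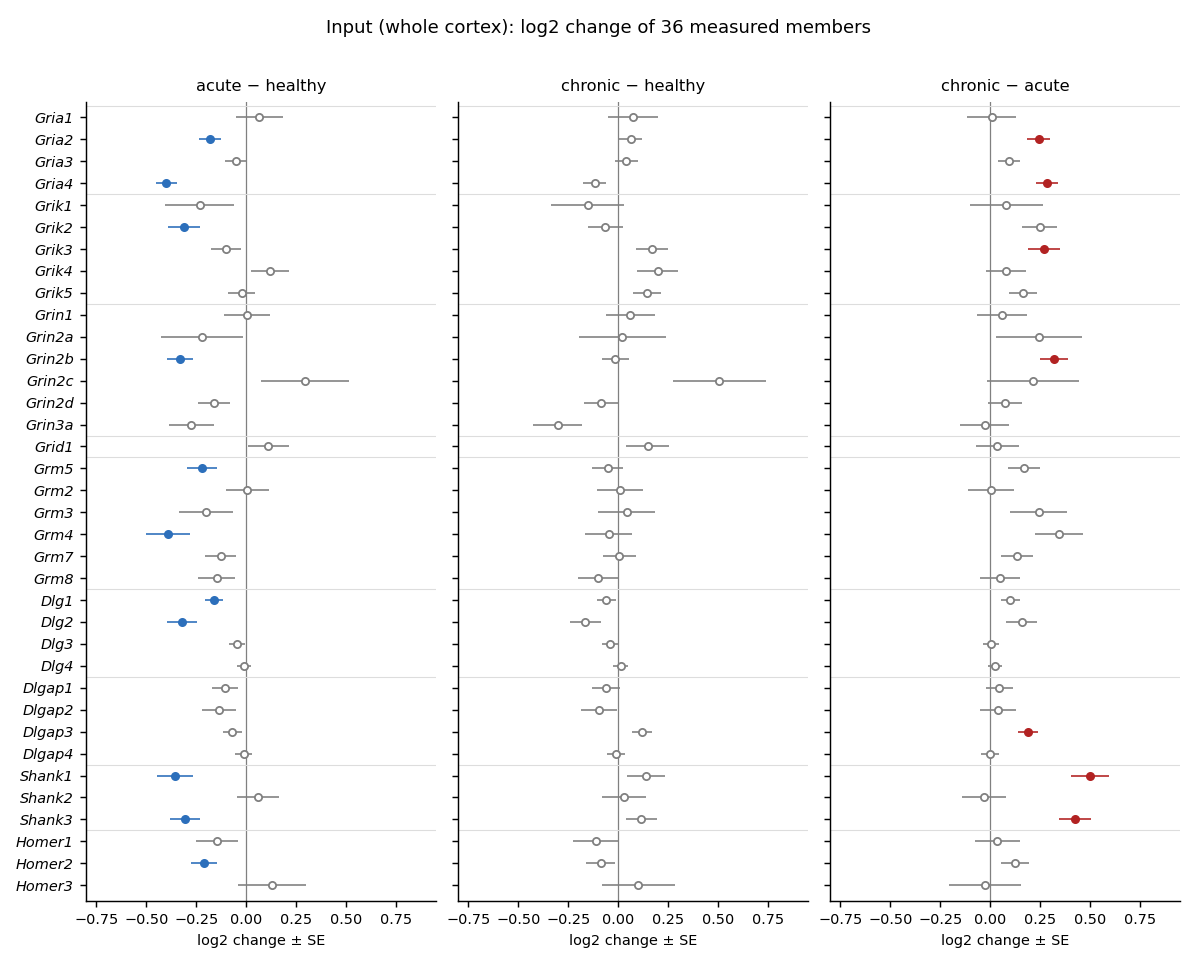
Log2 change ± SE of 36 measured genes in input for acute against healthy, chronic against healthy and chronic against acute; filled points passed an adjusted p under 0.05 (blue lower, red higher). In acute against healthy 11 genes are filled and lower, in chronic against healthy 0 are filled, and in chronic against acute 7 are filled and higher.

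By day 30, whole cortex did not differ from healthy at the threshold for any of these genes. Of 38 genes, 0 passed in edgeR and 0 in DESeq2, and 4 had an unadjusted p under 0.05, where 2.74% of all genes passed in either direction. The median log2 change was 0.01. The smallest p values were those of Grin3a, an NMDA subunit of low calcium permeability (-0.30 ± 0.12 SE, edgeR adjusted p = 0.25), and Dlgap3, a scaffold of striatal and cortical synapses (0.12 ± 0.05 SE, edgeR adjusted p = 0.286). Grik3 passed in the fit without healthy 3. In chronic input the astrocyte markers summed to 1142 to 1487 CPM, the microglia markers to 92.9 to 218 and the pan-neuronal genes to 26090 to 27305.

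Set against the acute phase, chronic input had 7 of 38 genes higher and 0 lower, where 2.95% of all genes were higher and 4.74% lower. The median log2 change was 0.11, against 0.01 over all genes. In the same comparison 2 of 10 oligodendrocyte markers were higher and 0 lower (summed level 2314 to 3031 CPM in acute and 2872 to 4303 in chronic input), 2 of 10 astrocyte and 2 of 6 leukocyte genes were lower and 0 higher, and 1 of 30 pan-neuronal genes was higher and 4 lower. Their part in the result was not tested. This comparison shares the acute libraries with acute against healthy, so a low acute value enters both, and the values are given side by side without a test of their likeness. Shank1 had 228, 226, 215 and 222 CPM in chronic replicates 1 to 4, all above the acute libraries, and rose by 0.50 ± 0.10 SE (edgeR adjusted p = 0.00644). Shank3 had 135, 132, 139.8 and 149.9 CPM, again above every acute library, and rose by 0.42 ± 0.08 SE (edgeR adjusted p = 0.00389). The chronic Shank1 libraries also lay above the healthy ones, and those of Shank3 overlapped them.

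Receptor genes higher in chronic than in acute input were Gria4, Gria2, Grin2b and Grik3. Gria4 had 75.2, 71.3, 72.9 and 81.9 CPM, above every acute library but with 3 of 4 below the healthy range, and the rise over acute was 0.28 ± 0.06 SE (edgeR adjusted p = 0.00447). Gria2 had 321, 337, 371 and 392 CPM, with chronic 1 inside the acute range, and rose by 0.24 ± 0.06 SE (edgeR adjusted p = 0.0142), a call lost without chronic 3 or 4. Grin2b had 265, 283, 284 and 321 CPM, above all acute libraries, a log2 change of 0.32 ± 0.07 SE (edgeR adjusted p = 0.0105). Dlgap3 also rose (0.19 ± 0.05 SE, edgeR adjusted p = 0.0256), as did Grik3, a kainate subunit of low glutamate affinity (0.27 ± 0.08 SE, edgeR adjusted p = 0.0471). Grik3 passed in 3 of 14 fits without 1 library, namely those without healthy 1, 3 or 5, and Dlgap3 lost its call without acute 3 or chronic 1, 2 or 4. Dlg2 (210.4, 216, 203 and 176 CPM), Dlg1 (187, 189.6, 193 and 180.0 CPM) and Grm5 (98.4, 103, 113 and 128 CPM) did not pass in this comparison, with adjusted p = 0.252, 0.212 and 0.211 in edgeR. The count was 4 without chronic 4 and 0 with all libraries in a single fit.

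**Figure D3:**
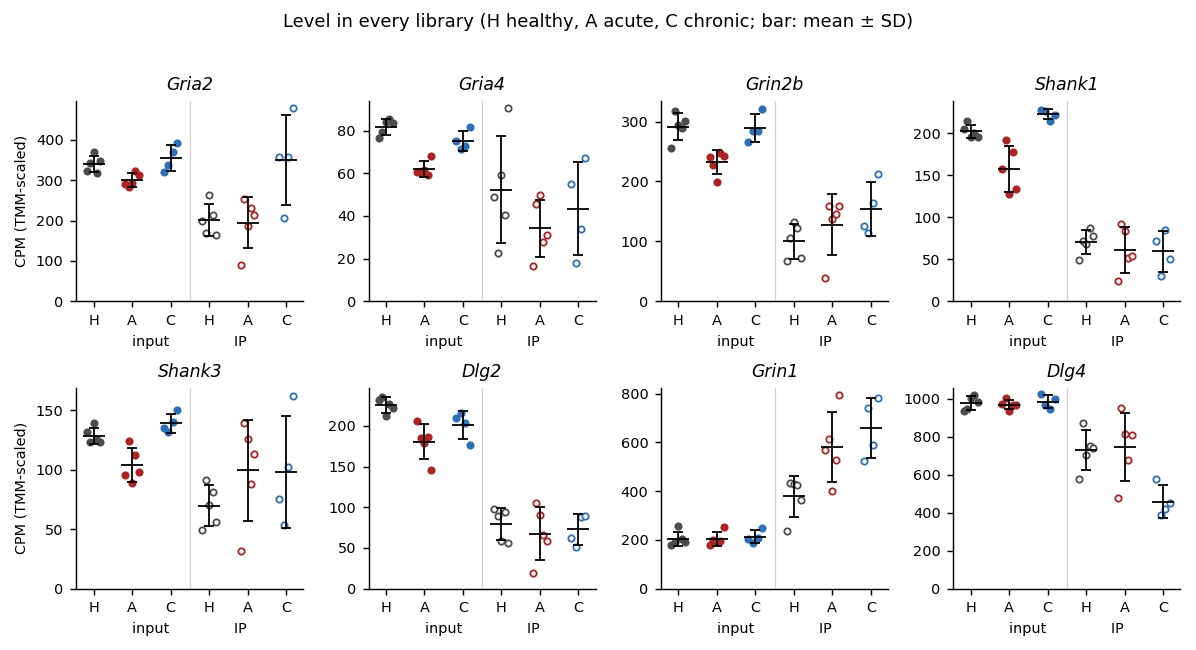
CPM of 8 genes in every library, TMM-scaled within each fraction, filled points for input and open points for IP, with H, A and C for healthy, acute and chronic. Bars are mean ± SD. In input, Gria4, Grin2b, Shank1 and Dlg2 have every acute point below every healthy point, Grin1 and Dlg4 overlap between phases, and in IP the spread is wider, with Dlg4 low in the chronic group.

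Set against whole cortex, the pulldown held more Grin1 and Grm2 message and less of Shank1, Dlg1, Dlg2, Dlgap1 and Homer1 in each phase. It held less of Grin2b in healthy and chronic mice. In healthy mice, IP exceeded input for 2 of 38 genes and was below it for 9, where 7.2% of all 16580 genes were higher and 14.4% lower. The median log2 ratio was -0.53, against -0.23 over all genes. These ratios come from the joint fit, which takes the libraries as independent, whereas CPM were scaled within each fraction. Sums, levels and overlaps of CPM between IP and input, here and below, are therefore approximate. The summed level of the 40 genes was 5796 to 6159 CPM in healthy input and 3661 to 4469 in healthy IP, while the pan-neuronal genes summed to 34350 to 37435 CPM in IP, and 18 of 30 of them were higher and 2 lower. Inhibitory neuron markers were higher for 0 and lower for 4 of 10. Scaling on the pan-neuronal genes moved the median of all genes by -0.45, and then 1 of the 38 was higher (Grin1) and 20 lower. Without the 4 least complex IP libraries (acute 3, acute 1, chronic 3 and healthy 5), 3 were higher and 14 lower. The shares of all genes called under these alternatives are not given here, so their counts are not read as particular to these genes.

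Grin1 stood highest. Its level was 234, 434, 431, 427 and 366 CPM in healthy IP, against 177, 190.4, 255, 204 and 190.0 in input. As printed, healthy IP 1 lay inside the input range, which the difference of scale between the fractions leaves uncertain. The log2 ratio was 1.07 ± 0.17 SE (edgeR adjusted p = 3.48e-05). Grm2, a presynaptic group II receptor that lowers glutamate release, had 74.1, 60.1, 65.3, 73.3 and 96.8 CPM in IP and 41.6, 43.9, 41.1, 49.0 and 46.9 in input, without overlap. Its ratio was 0.91 ± 0.26 SE (edgeR adjusted p = 0.00878), a call lost with scaling on pan-neuronal genes.

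All other genes with a call in healthy mice were lower in IP. Grin2b had 67.3, 106, 132, 122.7 and 72.4 CPM in IP, all below the input libraries, a log2 ratio of -1.37 ± 0.24 SE (edgeR adjusted p = 0.000139). Shank1 had 49.1, 72.3, 67.7, 86.9 and 77.3 CPM (-1.34 ± 0.25 SE, edgeR adjusted p = 0.000213) and Dlg2 97.3, 89.4, 59.0, 94.3 and 56.1 CPM (-1.34 ± 0.26 SE, edgeR adjusted p = 0.000326). Neither of these overlapped its input range. Homer1 had 187, 189, 136, 185 and 116 CPM in IP, a ratio of -0.91 ± 0.17 SE (edgeR adjusted p = 0.000252), and Dlgap1, a scaffold that binds the guanylate kinase domain of DLG proteins, had 422, 381, 329, 469.9 and 229.7 CPM against 762, 747, 682, 810.0 and 707 in input (-0.84 ± 0.16 SE, edgeR adjusted p = 0.000347). Dlg1 was lower as well (-0.75 ± 0.16 SE, edgeR adjusted p = 0.000854). The other genes lower in healthy IP were Grik3 at -0.60, Gria2 at -0.58 and Homer2 at -1.40, and Homer2 passed in 3 of 14 fits that left out a replicate number in both fractions. Gria2 lost its call without healthy 1, 2 or 5 and Grik3 without healthy 1, 2 or 3. Dlg4 did not pass (-0.25 ± 0.13 SE, edgeR adjusted p = 0.198).

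In acute mice, 3 genes were higher and 7 lower in IP, where 8.56% of all genes were higher and 10.1% lower, with a median of -0.34 against -0.36 over all genes. Grin1 was at 570.4, 614, 399.9, 526 and 793 CPM in IP, above every acute input library, a ratio of 1.70 ± 0.17 SE (edgeR adjusted p = 1.11e-08). Grm2 had 25.8, 141, 112, 84.1 and 107 CPM, with acute 1 below the input range and the others above it, a ratio of 1.26 ± 0.26 SE (edgeR adjusted p = 0.000542). Dlgap4, a member of the DLGAP family expressed through the brain, joined them (0.62 ± 0.14 SE, edgeR adjusted p = 0.00141). Lower were Homer1 (75.9, 137, 136, 145 and 124 CPM, -1.15 ± 0.17 SE, edgeR adjusted p = 1.04e-05), Dlg1 (-0.92 ± 0.16 SE, edgeR adjusted p = 8.56e-05), Dlg2 (-1.24 ± 0.26 SE, edgeR adjusted p = 0.000695), Shank1 (-1.19 ± 0.25 SE, edgeR adjusted p = 0.000713), Dlgap1 (-0.54 ± 0.16 SE, edgeR adjusted p = 0.0194), Homer2 at -1.59 and Grm5 at -0.67. Grm5 passed in 5 of 14 fits, and Grin2b did not pass in the fit as reported. Dlgap1 lost its call without acute 1 or 3 and Homer2 without acute 1, 4 or 5. With pan-neuronal scaling, which moved the median of all genes by -0.58, 2 were higher and 18 lower. Without the 4 IP libraries with the fewest genes, 6 were higher and 5 lower. Shares of all genes under these alternatives are again not given, and the counts are not read as particular to these genes.

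In chronic mice, 3 genes were higher and 10 lower in IP, where 8.74% of all genes were higher and 20% lower, with a median of -0.33 against -0.32 over all genes. Grin1 had 526, 741, 588 and 781 CPM in IP and 204, 188, 207 and 250.1 in input, without overlap, a ratio of 1.82 ± 0.19 SE (edgeR adjusted p = 2.90e-08). Grm2 had 115, 71.7, 80.2 and 74.2 CPM against 49.5, 32.4, 45.7 and 51.3 (1.12 ± 0.29 SE, edgeR adjusted p = 0.00386), and Dlgap4 was higher at 0.49. Dlg4 had 580.3, 387, 419 and 450.1 CPM in IP against 1026, 968, 949 and 1001 in input. All 4 IP libraries lay far below the input libraries, a ratio of -0.92 ± 0.14 SE (edgeR adjusted p = 2.11e-05). Also lower were Homer1 (-1.36 ± 0.19 SE, edgeR adjusted p = 5.41e-06), Shank1 (-1.73 ± 0.28 SE, edgeR adjusted p = 3.98e-05), Grik3 (-1.14 ± 0.22 SE, edgeR adjusted p = 0.000338), Dlgap1 (-0.86 ± 0.18 SE, edgeR adjusted p = 0.000804), Dlg2 (-1.28 ± 0.29 SE, edgeR adjusted p = 0.00133), Dlg1 at -0.68, Dlgap3 at -0.40, Homer2 at -1.57 and Grin2b at -0.72. Grin2b passed in 5 and Homer2 in 7 of 14 fits, Dlgap4 lost its call without chronic 1 or 2, and Dlgap3 without chronic 1, 2 or 4. With pan-neuronal scaling, which moved the median of all genes by -0.43, 1 gene was higher and 15 were lower, and neither Grm2 nor Dlgap4 passed. The share of all genes called with that scaling is not given here, so the count is not read as particular to these genes. Across the 38 genes, the log2 ratio and the exon length had a Spearman rho of -0.07 in healthy, -0.13 in acute and -0.02 in chronic mice, a description over genes of the same libraries.

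**Figure D4:**
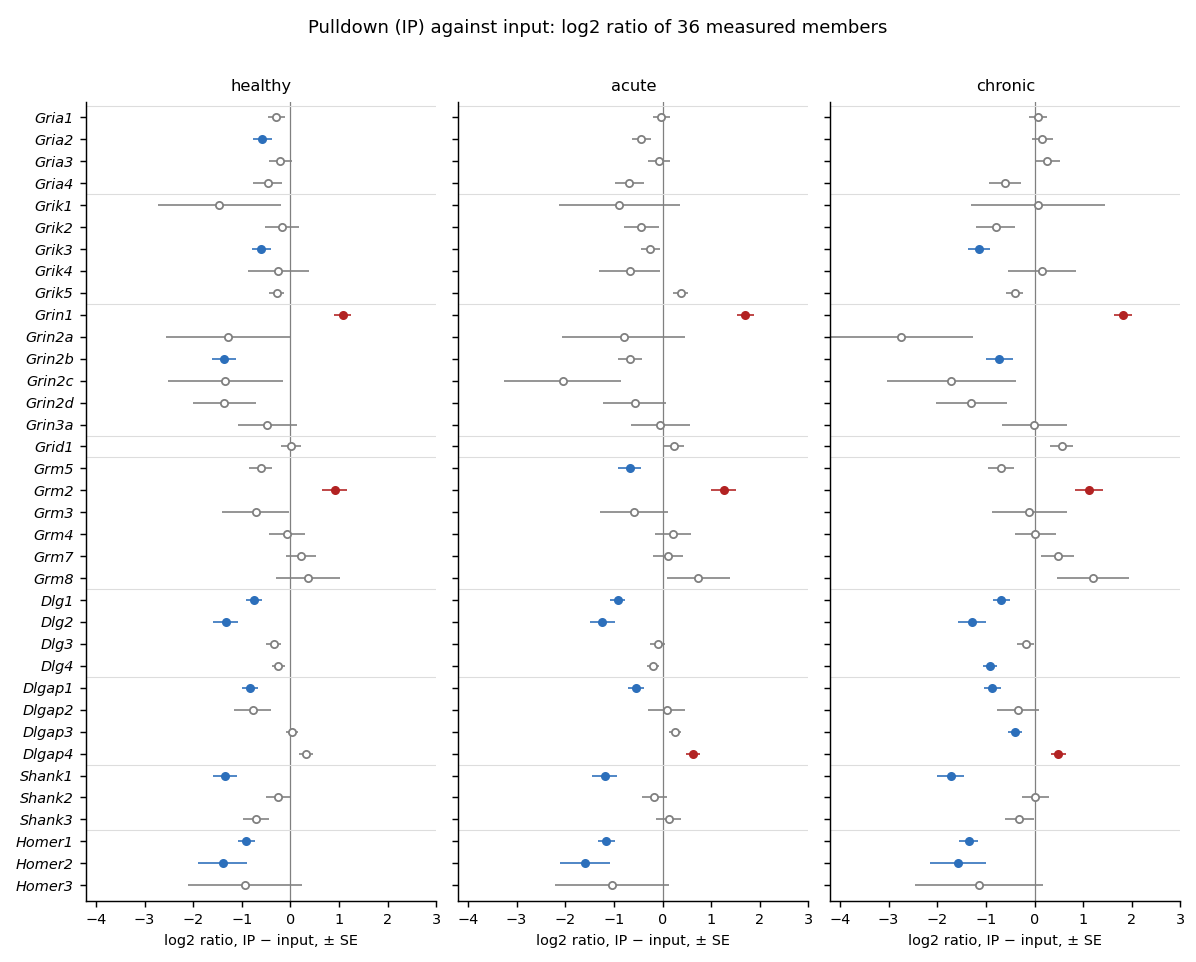
Log2 ratio ± SE of IP to input for 36 measured genes in healthy, acute and chronic mice; filled points passed an adjusted p under 0.05 (red higher, blue lower in IP). Grin1 and Grm2 are filled and to the right in each phase, and Dlg1, Dlg2, Dlgap1, Shank1, Homer1 and Homer2 are filled and to the left in each phase.

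Within the pulldown, no gene of the group passed between phases in edgeR, at a spread between libraries much larger than in input. With all 28 libraries in a single fit, which pools that spread with the smaller one of input, 2 genes passed in acute against healthy IP (Grik5 and Grin1), 5 in chronic against healthy (Dlg4, Gria2, Grid1, Grin1 and Homer1) and 4 in chronic against acute (Dlg4, Dlgap3, Gria2 and Grik5). The share of all genes that passed in that single fit is not given here. In acute against healthy IP, 0 of 38 passed in edgeR (2 at an unadjusted p under 0.05) and 1, Grin1, passed in DESeq2, where 0.0647% of all 13914 genes passed in edgeR. Grin1 had 234, 434, 431, 427 and 366 CPM in healthy and 570.4, 614, 399.9, 526 and 793 in acute IP. Only acute 3 lay within the healthy range, and the log2 change was 0.62 ± 0.19 SE (edgeR adjusted p = 0.358). Grik5 was next (0.63 ± 0.21 SE, edgeR adjusted p = 0.431). In chronic against healthy IP, 0 passed in edgeR (5 at an unadjusted p under 0.05) and 2 in DESeq2, where 0.187% of all genes passed in edgeR. With scaling on the pan-neuronal genes, Grin1 passed. The chronic Grin1 levels of 526, 741, 588 and 781 CPM were all above the healthy ones (0.80 ± 0.20 SE, edgeR adjusted p = 0.103). Dlg4 went the other way, with 579.6, 872, 704, 749.6 and 743 CPM in healthy and 580.3, 387, 419 and 450.1 CPM in chronic IP. Chronic 1 lay just above the lowest healthy library and the other 3 lay below it (-0.67 ± 0.18 SE, edgeR adjusted p = 0.132). In chronic against acute IP, 0 passed in edgeR (4 at an unadjusted p under 0.05) and 2, Dlg4 and Gria2, in DESeq2, where 0% of all genes passed in edgeR. Dlg4 had 478, 954, 813, 678 and 808 CPM in acute IP, and the change to chronic was -0.70 ± 0.18 SE (edgeR adjusted p = 0.244). Gria2 had 89.9, 253, 187, 232 and 214 CPM in acute and 358, 205, 357 and 478 CPM in chronic IP, with chronic 2 inside the acute range (0.84 ± 0.26 SE, edgeR adjusted p = 0.339).

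Several genes named for input had wide IP values. Gria4 gave 48.8, 22.8, 59.3, 40.6 and 90.4 CPM in healthy, 16.8, 45.4, 49.9, 27.8 and 31.0 in acute and 55.2, 17.9, 33.6 and 66.9 in chronic IP. Shank3 gave 49.5, 91.7, 69.9, 81.6 and 56.3 CPM in healthy, 31.5, 139, 125, 87.9 and 114 in acute and 74.9, 53.6, 102 and 162 in chronic IP. For Gria1 the IP levels were 163, 169, 218, 246 and 187 CPM in healthy, 136, 269, 269, 257 and 297 in acute and 229.5, 214, 256 and 352 in chronic libraries. All these groups overlapped. Grin2a had 0 counts in 5 of 14 IP libraries, and its highest IP value, 14.7 CPM, was in acute 1. Astrocyte markers in IP summed to 717 to 991 CPM in healthy, 1234 to 1943 in acute and 1273 to 2400 in chronic libraries. Microglia markers summed to 19.7 to 53.8, 7.15 to 87.4 and 47.7 to 204 CPM. In the same order, inhibitory neuron markers summed to 614 to 803, 626 to 906 and 971 to 1332 CPM. Oligodendrocyte markers summed to 1055 to 1393, 844 to 1183 and 1217 to 3058 CPM, and layer 5 markers to 1244 to 1651, 1621 to 2224 and 1118 to 1778. Chronic 4 was the highest IP library for the inhibitory, astrocyte, oligodendrocyte and microglia sums, and the lowest for the layer 5 and pan-neuronal sums. The part of these cells in the IP values, the shares below included, was not tested.

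Whether the change from healthy differed between the fractions was tested as an interaction. In the acute phase, 0 of 38 genes passed in edgeR (3 at an unadjusted p under 0.05) and 0 in DESeq2, where 0.00603% of all genes passed. The smallest p values were those of Grik5 (0.66 ± 0.21 SE, edgeR adjusted p = 0.120) and Grin1 (0.63 ± 0.24 SE, edgeR adjusted p = 0.196). Without the 4 IP libraries with the fewest genes, 7 passed, all with a more positive change in IP: Dlg3, Dlgap4, Gria3, Grin1, Grin2b, Grm2 and Shank3. That fit lacked acute IP 1 and acute IP 3. The share of all genes that passed in it is not given here, and 0.00603% is of the fit with all libraries. In the chronic phase, 0 passed in edgeR (4 at an unadjusted p under 0.05) and 2, Grin1 and Dlg4, in DESeq2, where 1.03% of all genes passed in edgeR. Dlg4 (-0.67 ± 0.19 SE, edgeR adjusted p = 0.0639) and Grin1 (0.75 ± 0.25 SE, edgeR adjusted p = 0.0893) had the smallest p values. For Gria4 and Shank1, lower in acute input, neither fit showed a difference between the fractions, whereas for Grin2b and Shank3 the fit without those libraries did and the fit with all libraries did not.

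Subunit makeup was measured as a share within each library, in percent of counts per kilobase, which does not depend on library scaling. The share of Gria2 among Gria1 to Gria4 bears on calcium entry, since receptors without it pass calcium. The deposited exon length, 15548 bases for Gria2 against 6043 for Gria1, limits the level of this share. By CPM not divided by length, Gria2 was the highest of these genes in healthy input, at a mean of 340 against 271 for Gria1. In input the share was 23.6%, 23.3%, 22.0%, 21.9% and 22.7% in healthy, 21.6%, 21.4%, 21.1%, 20.9% and 19.7% in acute, and 24%, 22.4%, 23.2% and 22.5% in chronic libraries. Every acute library lay below every healthy and every chronic one. The acute share was 1.71 percentage points lower than healthy and the chronic share 2.08 points higher than acute (two-sided exact permutation test, adjusted p = 0.0357 over 27 tests in both cases, with an unadjusted p of 0.00794, the smallest these groups allow). In IP the share was 21.2%, 20.2%, 21.6%, 18.8% and 15.6% in healthy, 16.7%, 19.1%, 14.9%, 19.7% and 16.3% in acute, and 27.4%, 20.1%, 23.7% and 26.1% in chronic libraries. All chronic IP libraries were above all acute ones, by 7.02 points on average (exact permutation adjusted p = 0.0357), while chronic against healthy IP did not pass (4.86 points, exact permutation adjusted p = 0.115). The difference of IP from input was -3.17 points in healthy and -3.63 points in acute mice (exact permutation adjusted p = 0.0357 each). In chronic mice it was 1.32 points, the other way, and did not pass (exact permutation adjusted p = 0.677). The difference between the fractions in the chronic change of the Gria2 share was 4.49 points and did not pass (permutation of labels within each fraction, adjusted p = 0.224 over 6 tests).

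The share of Dlg4 among Dlg1 to Dlg4 was 68.9% ± 0.964 (SD, n = 5) in healthy, 70.8% ± 1.07 in acute and 70.2% ± 1.18 (n = 4) in chronic input. In IP it was 69.5%, 78.5%, 74.6%, 71.3% and 76.8% in healthy, 77.8%, 73.3%, 75.4%, 72.2% and 74.9% in acute, and 65.6%, 66.1%, 61.6% and 61.6% in chronic libraries. Every chronic IP library was below every other IP library. The chronic IP share was 10.4 points below healthy (exact permutation adjusted p = 0.0476) and 11 points below acute (exact permutation adjusted p = 0.0357). Healthy and acute IP were 5.26 and 3.98 points above input (exact permutation adjusted p = 0.0476 each), and the chronic difference was -6.44 points (exact permutation adjusted p = 0.0643, with 0.0286 the smallest unadjusted p that 4 against 4 allow). The deposited exon length of Dlg4, shorter than in GENCODE M21, limits the level of this share. The chronic change differed between IP and input by -11.7 points (permutation of labels within each fraction, adjusted p = 0.00567 over 6 tests). The null of that permutation, also used for the Gria2 share, is no phase change in either fraction. Its p is therefore not strictly for equal changes, and it takes the fractions as independent.

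Grin2a, which replaces Grin2b in many synapses during maturation, made up 13.2% ± 3.14, 14.1% ± 3.06 and 13.5% ± 2.59 of the pair in healthy, acute and chronic input (SD, n = 5, 5 and 4). In IP its share ran from 0% to 29.3% in healthy, 0% to 63.9% in acute and 0% to 8.23% in chronic libraries. None of its 9 comparisons passed, and the length of Grin2a in the annotation used limits the level of the share.

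**Figure D5:**
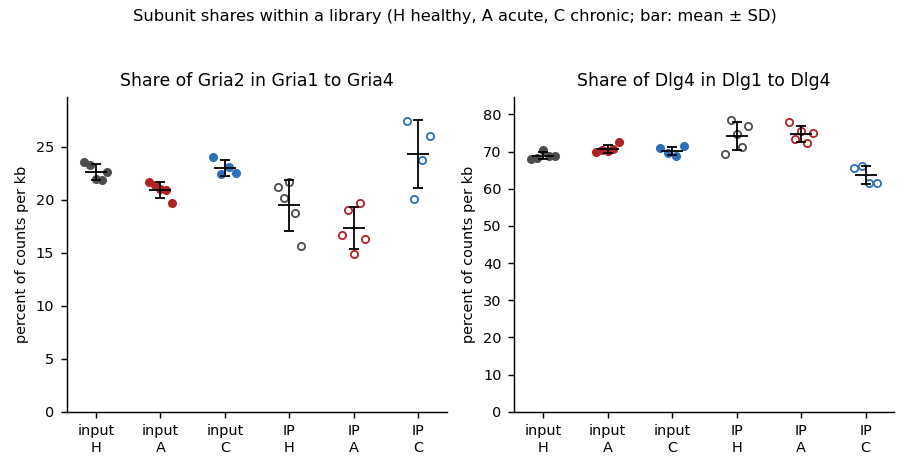
Share of Gria2 among Gria1 to Gria4 (left) and of Dlg4 among Dlg1 to Dlg4 (right), in percent of counts per kilobase, in every library of input (filled) and IP (open), with H, A and C for healthy, acute and chronic and bars for mean ± SD. Within input, the Gria2 share is lowest in the acute group, and within IP the Dlg4 share is lowest in the chronic group, where 4 libraries lie between 61.6% and 66.1%.

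Beyond the receptors and scaffolds, 61 partner genes were counted, comprising AMPA and kainate auxiliary subunits, postsynaptic signalling enzymes, adhesion molecules and extracellular organisers. In acute input 6 of 61 were higher and 12 lower than healthy, where 11.1% of all genes were higher and 8.59% lower. Among them were Lrrc4c, the netrin-G ligand NGL-1 (-0.42 ± 0.05 SE, edgeR adjusted p = 1.50e-05), Frrs1l, which assists AMPA receptor assembly (-0.28 ± 0.04 SE, edgeR adjusted p = 2.05e-05), Ppp3ca, a calcineurin catalytic subunit (-0.25 ± 0.04 SE, edgeR adjusted p = 6.27e-05), and Plcb1, the phospholipase downstream of group I metabotropic receptors (-0.37 ± 0.06 SE, edgeR adjusted p = 0.000223). Postsynaptic adhesion genes were lower for 4 of 11 and higher for 0, and extracellular organisers higher for 2 of 8 and lower for 0. In chronic against healthy input 1 of 61 was higher, Ppp1r9b, the spine protein spinophilin (0.19 ± 0.05 SE, edgeR adjusted p = 0.0399). Camk2d was lower (-0.32 ± 0.06 SE, edgeR adjusted p = 0.00600), and 1 of 61 was lower in all. Over all genes 2.74% passed in either direction, so these counts are near the general share. In chronic against acute input 8 were higher and 1 lower, where 2.95% of all genes were higher and 4.74% lower, with Ppp3ca at 0.29 ± 0.04 SE (edgeR adjusted p = 0.000388), Lrrc4c at 0.29 ± 0.06 SE (edgeR adjusted p = 0.00400) and Tanc2, a large scaffold, at 0.31 ± 0.06 SE (edgeR adjusted p = 0.00441).

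In IP against input, 10, 16 and 12 partners were higher and 11, 9 and 8 lower in healthy, acute and chronic mice. Over all genes, 7.2%, 8.56% and 8.74% were higher and 14.4%, 10.1% and 20% lower in the same order. In healthy mice the leading genes were Kalrn, an exchange factor of dendritic spines (3.82 ± 0.23 SE, edgeR adjusted p = 1.27e-12), Ncdn, a neuronal regulator of CaMKII (1.12 ± 0.10 SE, edgeR adjusted p = 1.42e-09), Nsf, an ATPase that binds Gria2 (1.06 ± 0.10 SE, edgeR adjusted p = 4.50e-09), and Baiap2, an actin regulator (0.68 ± 0.10 SE, edgeR adjusted p = 8.28e-06). Between phases in IP, 0 of the 61 passed in edgeR, with 12 at an unadjusted p under 0.05 in acute against healthy, 11 in chronic against healthy and 8 in chronic against acute. In the chronic interaction 1 of the 61 passed, Camk2b (0.54 ± 0.13 SE, edgeR adjusted p = 0.0411), with a more positive change in IP. Over all genes 1.03% passed in that interaction.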

How the data were processed

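RNA-seq counts were analysed for 28 libraries of mouse cortex, 14 of IP and 14 of input RNA. The authors deposited a single table of raw read counts per gene, made with featureCounts 1.5.1 on an Ensembl 79 annotation without use of strand, per the file headers, and STAR 2.4 and GRCm38 are named in the submitters' processing notes. Without strand, reads of overlapping antisense genes cannot be told apart, and reads shared by related receptor genes are uncertain. The header command named 36 alignment files, and those beyond the 28 were not analysed here. Unmapped count columns numbered 0. Pairs of libraries in a group all differed by more than sampling noise.

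Counts were scaled by TMM, filtered with filterByExpr (minimum count 10, minimum total 15) and tested with edgeR 4.0.16 in R 4.3.3 (quasi-likelihood, Benjamini-Hochberg over all genes tested, threshold 0.05). Input and IP were fitted separately for phases, and together for IP against input and for interactions, 11 comparisons in all. CPM are on the library size scaled within each fraction, so IP and input CPM are not on a common scale. CPM per kb divides by deposited exon length. Log2 ratios of IP to input come from the joint fit and do not equal ratios of these CPM. Shares were tested by exact permutation over libraries in Python 3.11.15, adjusted over 27 tests. The method was tested on simulated data. Alternatives were DESeq2 1.42.0, its size factors, scaling on pan-neuronal genes, no low-count filter, all libraries in a single fit, a replicate block and leaving out libraries.

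The genes, marker and partner lists and tests were chosen with earlier results of these data known. Values in every library were given for a core set and up to 6 further genes with the smallest adjusted p, full statistics for up to 8 called genes per comparison, and for the 2 smallest p where none passed. Partner genes were limited to 4 per comparison. Naming of genes that did not pass in acute input and of lost calls went beyond this rule, after values were seen. Individual values of 2 of the 38 genes tested, neither called in the fits as reported, are not reported here.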

Additional observations from a re-analysis of the deposited data

Results flagged for a closer look

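Among 114 groups of 4 or 5 libraries tested for a library far from the rest, 9 stood out by the gap to the nearest library divided by the range of the group, and chance gives about 1 in 20. Acute IP replicate 1 was lowest for Gria1 (ratio 0.7502) and Grin2b (0.8235) and highest for Grin2a (0.8286) and for the share of Grin2a in Grin2a and Grin2b (0.8916), where Grin2a had 150 of 546 counts. Acute input replicate 5 was highest for Gria4 (0.7506), Grin1 (0.7714) and the share of Dlg4 in Dlg1 to Dlg4 (0.7542), and lowest for Dlg1 (0.7363). Chronic input replicate 4 was lowest for Dlgap1 (0.8952). The chronic change in the Dlg4 share differed between IP and input by -11.7 percentage points.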

How the results depend on the processing

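For the genes called, or with the smallest p, in each comparison, 1139 values stayed on the same side of the threshold over the alternatives, 128 lost and 19 gained a call, and 0 changed direction. Genes called under an alternative alone are not in these numbers. With all libraries in a single fit, the calls were 0 in acute against healthy input, 0 in chronic against acute input, 2 in acute against healthy IP, 5 in chronic against healthy IP, 4 in chronic against acute IP and 0 partner genes in acute input. DESeq2 called 1 gene in acute against healthy IP and 2 each in chronic against healthy IP, chronic against acute IP and the chronic interaction. Scaling on pan-neuronal genes gave 6 in acute input, 1 in chronic against healthy IP, 21 in healthy IP against input and 20 in acute IP against input. Without the 4 IP libraries with the fewest genes, 17 were called in healthy IP against input, 7 in the acute and 2 in the chronic interaction. Shares of all genes called under each alternative are not given beside these counts. The cause was not tested.

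Leaving out 1 library gave 7 to 11 calls in acute against healthy input (7 without healthy 2 or acute 3), 0 to 1 in chronic against healthy input, 4 to 7 in chronic against acute input (4 without chronic 4), 0 in acute against healthy and chronic against acute IP, 0 to 1 in chronic against healthy IP (Dlg4 without acute 1), and 14 to 19 partner genes in acute input. In IP against input the range was 8 to 15 in healthy, 7 to 11 in acute and 9 to 15 in chronic mice, and 0 to 1 in each interaction (without acute 1, Grin2b in the acute and Dlg4 in the chronic).

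Leaving out 1 library moved the Gria2 share, in points, from -1.90 to -1.40 in acute against healthy input, 1.75 to 2.28 in chronic against acute input, 3.82 to 6.27 in chronic against healthy IP, 5.98 to 8.42 in chronic against acute IP, -3.71 to -2.20 in healthy IP against input and -4.21 to -3.03 in acute IP against input. The Dlg4 share moved from 1.40 to 2.25 in acute against healthy input, -11.6 to -9.33 in chronic against healthy IP, -11.8 to -10.2 in chronic against acute IP, 4.17 to 6.43 in healthy IP against input and 3.21 to 4.62 in acute IP against input. Fewer libraries raise the smallest p the exact test can give (0.0286 for 4 against 4).

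The submitters' sample codes run over the same numbers in both fractions, but the labels do not say whether same-numbered libraries share a mouse. Deviations of IP and input libraries of the same number correlated positively in 12 of 14 pairs (-0.00863 to 0.143). Of 14 IP libraries, 10 correlated best with the input library of their own number. Together with the matching codes, that is a hint of pairing, which it does not establish. Not every correlation was over 0.1, and over all pairs of groups they ran from -0.109 to 0.173, so the libraries were not treated as paired. The limit of 0.1 is arbitrary and does not settle the pairing. The p-values of IP against input and of the interactions take the libraries as independent, which the labels do not establish. If the libraries are paired, those p-values ignore it. The replicate block gave libraries of the same number a common effect over all phases, although the phases are of different mice. It does not model a mouse shared by IP and input within a phase. With this block, the counts were 11, 0 and 6 in the input comparisons, 0 in each IP comparison and interaction, 12, 11 and 13 in IP against input, and 20 partner genes in acute input. The block ended the calls of Homer2 in healthy and chronic IP against input (edgeR adjusted p = 0.0722 and 0.0622) and of Grik3 in chronic against acute input (0.0890), and in IP against input calls were gained by Grm5 and Shank3 in healthy, Grin2b in acute and Grm5 in chronic mice. Depth sets the counting error of genes of low count, such as Grin2a.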
